A study of Homo sapiens with 10 samples.

Results

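The numbered zinc finger genes, whose symbols are ZNF followed by a number, were examined in A549 cells and in cisplatin-resistant A549/DDP cells. The members were chosen by measured values: a gene entered when its mean level was at least 5 TPM (a level corrected for transcript length and library size) in the 2 A549 input libraries. This rule took 240 of the 477 numbered ZNF genes and 240 of the 11110 genes at that level, in tables of 58037 genes. A549 is a human lung cancer cell line, and A549/DDP is its derivative resistant to DDP, the drug cisplatin. Both lines grew in RPMI medium with serum and antibiotics at 10 passages or fewer, no further treatment is labelled, and whether A549/DDP is a clone or a pool of cells is not given in the sources used here. Each line gave 2 input libraries, which hold RNA not pulled down, and 2 m6A-seq libraries, in which fragments were pulled down with an antibody against N6-methyladenosine. The labels of the A549/DDP inputs give DDP in the title and a resistant cell type, but A549 alone as the cell line. Nothing in the labels says that replicates came from separate cultures, so p-values measure the spread between these libraries, which may be technical.

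Most ZNF proteins bind DNA through tandem C2H2 zinc fingers, in which cysteines and histidines hold a zinc ion and neighbouring residues read a few bases of DNA. Many carry a KRAB domain at the amino end, which recruits the corepressor KAP1 (gene TRIM28). KAP1 in turn brings the histone methyltransferase SETDB1, HP1 proteins and the NuRD complex, and much of this machinery silences transposable elements. In the human genome these genes arose by repeated duplication and lie in large clusters, above all on chromosome 19. m6A is the commonest internal mark of messenger RNA, and the paper that reported these data studied its reader YTHDF1.

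The total of expected counts was 29225501 to 35286514 in the 4 inputs of the comparison, and the median member had 390.5 to 738.6 counts in a library. A second pair of A549 inputs held only 855034 and 982036 counts, of which 75.2% and 73.9% were mitochondrial, and 80 and 77 members were at 0 there. That pair was therefore used only as an alternative. The epithelial markers KRT8, KRT18 and CDH1 were above 28 TPM in every one of the 4 inputs. EPCAM lay between 2.45 and 6.95 TPM, and KRT19 stood at 33.3 and 64.0 TPM in A549 and at 9.24 and 0 TPM in A549/DDP. The lung markers NKX2-1 and SFTPB were at or below 0.45 TPM, so the lung origin was not marked by these. The lung marker NAPSA stood at 1.51 and 0 TPM in A549 and at 3.94 and 2.16 TPM in A549/DDP. PTPRC, CD3E, VWF, CDH5 and PECAM1, which mark blood and endothelial cells, did not exceed 0.39 TPM, whereas CD68, listed with the blood markers and also present in other cells, stood at 128 to 156 TPM. Of the fibroblast markers COL1A1 reached 14.7 TPM, COL1A2 2.69 TPM and PDGFRB 0.22 TPM. The part of other cells in the results was not tested. Depth behind the peak lists is unknown, since they hold no counts.

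Members were mostly genes of low to moderate level. Their median was 13.6 and 13.9 TPM in the A549 inputs and 11.9 and 11.6 TPM in the A549/DDP inputs. The highest member stood at 308 and 332 TPM in A549, and the highest in A549/DDP at 130 and 111 TPM. In A549/DDP 52 members had a mean below 5 TPM, 4 below 1 TPM and 3 below 0.5 TPM. Together the members took 0.846% and 0.841% of all counts in the A549 inputs but 0.610% and 0.626% in the A549/DDP inputs, so both A549/DDP libraries lay below both A549 libraries. Just inside the threshold stood ZNF14 at 5.05 TPM, ZNF615 at 5.07 TPM and ZNF543 at 5.08 TPM, with 1.24, 0.95 and 1.59 TPM in A549/DDP. Just outside it stood ZNF570 at 4.87 TPM, ZNF445 at 4.80 TPM and ZNF484 at 4.80 TPM, with 0.05, 5.77 and 2.98 TPM in A549/DDP.

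**Figure D1:**
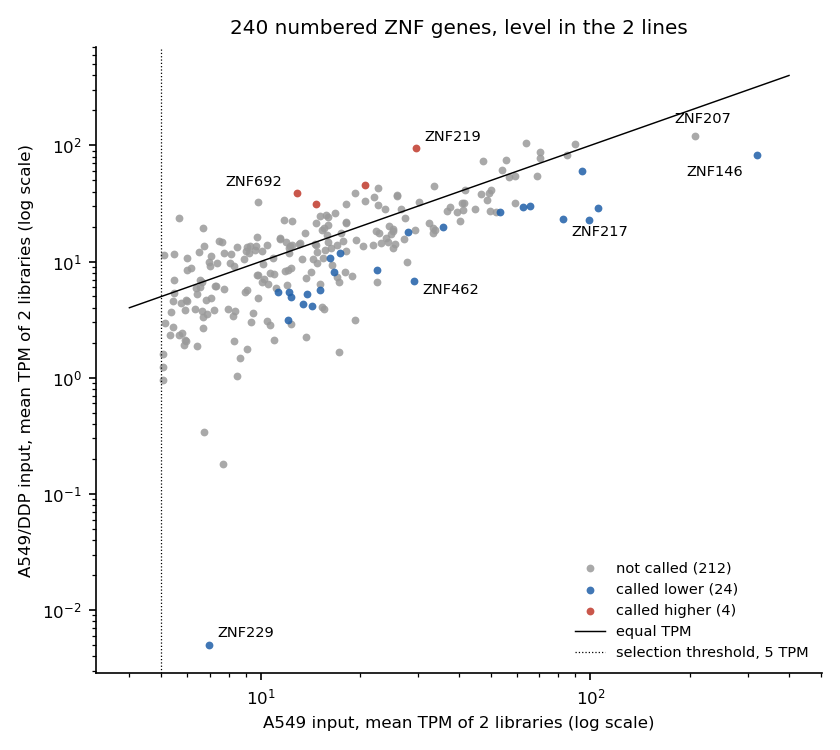
Each point is 1 of the 240 members, with its mean TPM over 2 A549 inputs on the x axis and over 2 A549/DDP inputs on the y axis, both on log scales. More points lie below the line of equal level than above it, ZNF229 lies at 0.005 TPM in A549/DDP, and the dotted line is the threshold of 5 TPM that selected the genes in A549.

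To ask how the RNA of the members differed between the lines, expected counts were compared with edgeR's quasi-likelihood test over all 16406 genes that passed its filter on low counts, and all 240 members passed. Of the members, 24 were lower and 4 were higher in A549/DDP at an adjusted p under 0.05, against 8.0% lower and 6.85% higher among all genes tested. Their median log2 fold change was -0.56, with 176 of 240 below 0, and the median of all genes tested was -0.0016. Among the 11058 genes tested that met the same level in A549, the median was -0.12, with 1287 lower and 884 higher. CPM (counts scaled to library size, TMM-normalised) of both A549/DDP inputs lay below both A549 inputs for 130 members and above for 33, and overlapped for 77, against 32.7% below and 29.7% above among all genes tested. Because the threshold was set on the A549 arm of this contrast, genes that happened to be high in A549 are favoured, and nothing is read from these counts. Chosen instead by at least 5 TPM in the A549/DDP inputs, numbered ZNF genes had a median of -0.19, with 19 lower and 7 higher of 220. That choice favours genes high in A549/DDP. Chosen by the mean of the 4 inputs, they had a median of -0.48, with 23 lower and 7 higher of 237. A difference in the share of cells that express a gene and a difference in RNA per cell cannot be told apart in such libraries. The count of lower members was 52 with DESeq2, 7 or 4 with limma on log2 TPM, and 11 against the shallow second pair of A549 inputs. Calls in either direction over all genes tested were 2437 in the main fit and 4234 with DESeq2. They were 1492 or 1177 with limma and 3758 against that pair. The count of higher members was 1 without A549/DDP replicate 1, 2 without A549/DDP replicate 2, and 25 against that second pair, where the median log2 fold change of the members was 0.51 and that of all genes 0.80.

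ZNF229 (ENSG00000278318.4, chr19:44426254-44448578, minus strand) had the largest fall among the called members. It was counted 712 and 416 times in the A549 inputs, and 1 and 0 times in the A549/DDP inputs. These values correspond to 8.02 and 5.95 TPM in A549 and 0.01 and 0 TPM in A549/DDP. As a ratio of summed counts scaled by library totals, ZNF229 was 1020 times as high in A549, with an exact 95% Clopper-Pearson interval of 183 to 40300 that covers counting error only. Its fitted log2 fold change of -9.74 (edgeR adjusted p = 0.00577) depends on the prior count. ZNF772 and ZNF699 were also at 0 counts in A549/DDP replicate 2, but were counted 35 and 78 times in replicate 1. Their adjusted p values by edgeR were 0.199 and 0.235, and these 2 genes were singled out after their values were seen.

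The 4 members shown next are ZNF229, ZNF227 from the same part of chromosome 19, the most abundant member ZNF146 and the member with the largest rise, ZNF219. The sequences before their transcript starts are given to show the range of CpG content among the genes that results turn on. Each is the 250 bases before a RefSeq start, 5′ to 3′ on the gene's strand in GRCh38.p14, with CpG dinucleotides in capitals. Where RefSeq lists several starts, the first one listed was taken.
ZNF229, chr19:44448473-44448722, minus strand: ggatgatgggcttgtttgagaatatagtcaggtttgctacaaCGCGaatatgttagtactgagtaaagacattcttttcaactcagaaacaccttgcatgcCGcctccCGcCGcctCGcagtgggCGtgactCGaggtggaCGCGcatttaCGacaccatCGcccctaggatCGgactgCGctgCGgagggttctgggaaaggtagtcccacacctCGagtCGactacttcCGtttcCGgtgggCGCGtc
ZNF227, chr19:44212282-44212531, plus strand: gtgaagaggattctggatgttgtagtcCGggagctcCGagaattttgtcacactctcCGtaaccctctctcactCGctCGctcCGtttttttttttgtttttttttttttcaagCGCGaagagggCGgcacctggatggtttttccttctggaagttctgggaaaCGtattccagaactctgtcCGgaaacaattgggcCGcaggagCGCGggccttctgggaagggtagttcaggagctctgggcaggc
ZNF146, chr19:36214856-36215105, plus strand: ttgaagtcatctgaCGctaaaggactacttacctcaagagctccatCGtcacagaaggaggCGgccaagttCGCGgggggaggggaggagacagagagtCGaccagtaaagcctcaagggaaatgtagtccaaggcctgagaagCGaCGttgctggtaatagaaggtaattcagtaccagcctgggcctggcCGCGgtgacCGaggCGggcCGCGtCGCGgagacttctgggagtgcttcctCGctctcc
ZNF219, chr14:21104723-21104972, minus strand: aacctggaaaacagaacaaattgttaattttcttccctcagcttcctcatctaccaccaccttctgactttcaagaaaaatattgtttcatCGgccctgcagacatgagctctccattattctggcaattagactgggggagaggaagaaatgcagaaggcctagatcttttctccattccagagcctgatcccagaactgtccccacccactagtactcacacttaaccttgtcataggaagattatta
The first 3 hold 21, 14 and 17 CpG dinucleotides in these 250 bases, and ZNF219 holds 1. In windows of 300 bases the called rises ZNF219, ZNF574, ZNF672 and ZNF692 held 3, 6, 26 and 32. The called falls ZNF229, ZNF227 and ZNF146 held 23, 19 and 24, and ZNF608, not called, held 6. The median was 16 over the 4 windows of members called higher and 23 over the 22 windows of members called lower. Over windows of 300 bases, which add 50 bases after the start, 205 of the 240 members had an entry, and their median was 24 CpG dinucleotides against 27 for the other genes of at least 5 TPM and 14 for all 27305 windows. The motif CCGGAAG, searched on both strands, was in 42.9% of the members' windows, in 20.8% of those of the other genes of at least 5 TPM and in 10.7% of all windows. It was in 8 of the 22 windows of members called lower and in 0 of the 4 windows of members called higher. TATAAA, on both strands, was in 2.44% of the members' windows, in 5.08% of those of the other genes of at least 5 TPM and in 12.0% of all windows. GGGCGG, on both strands, was in 63.9% of the members' windows, in 72.1% of those of the other genes of at least 5 TPM and in 44.6% of all. These matches describe the letters in the windows and were not tested.

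The other large falls were in genes of moderate level. ZNF462, a large zinc finger gene linked to a developmental syndrome, stood at 134 and 83.4 CPM in A549 and at 10.0 and 18.2 CPM in A549/DDP (log2 fold change -2.94, SE 0.39, edgeR adjusted p = 0.00865). ZNF778 went from 31.8 and 19.4 CPM to 3.98 and 3.58 CPM (edgeR adjusted p = 0.0137). ZNF26 went from 29.2 and 22.5 CPM to 4.39 and 5.53 CPM (edgeR adjusted p = 0.0156). In each of these genes both A549/DDP libraries lay below both A549 libraries, and the fitted falls were 7.70-fold, 6.77-fold and 5.20-fold. ZNF462 was called under 11 of 13 alternatives, ZNF778 under 9 and ZNF26 under 10. The log2 fold change of ZNF778 was -0.16 against the second A549 pair, and that of ZNF26 was -1.01 by limma on log2(TPM + 1), where neither was called. ZNF550 stood at 28.0 and 31.9 CPM in A549 and at 5.97 and 6.97 CPM in A549/DDP (4.63-fold, edgeR adjusted p = 0.0132). ZNF264 stood at 30.6 and 31.3 CPM and then at 5.50 and 9.14 CPM (4.22-fold, edgeR adjusted p = 0.0219). ZNF227 stood at 45.9 and 28.0 CPM and then at 9.28 and 10.8 CPM (3.68-fold, edgeR adjusted p = 0.0243). All 3 lie on chromosome 19, and their A549 and A549/DDP libraries did not overlap. ZNF550 and ZNF264 were each called under 10 of 13 alternatives and ZNF227 under 8. ZNF227 was not called without A549 replicate 1, at a log2 fold change of -1.49, nor against the second A549 pair, at -0.33.

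Among the abundant members the falls were smaller in fold and had smaller SEs. ZNF146 (chr19:36214723-36238768, plus strand), whose protein consists almost only of zinc fingers, was the most abundant member in A549 at 308 and 332 TPM, and stood at 86.1 and 79.2 TPM in A549/DDP (log2 fold change -1.71, SE 0.16, edgeR adjusted p = 0.00355). ZNF217, a transcriptional corepressor known as an oncogene in breast cancer, stood at 92.5 and 72.3 TPM in A549 and at 25.9 and 20.2 TPM in A549/DDP (log2 fold change -1.87, SE 0.20, edgeR adjusted p = 0.00467). ZNF655, which encodes a partner of the Vav signalling protein, stood at 119 and 91.5 TPM and then at 26.9 and 30.8 TPM (log2 fold change -1.87, edgeR adjusted p = 0.00828). ZNF326, a subunit of a complex that couples transcript elongation to splicing, stood at 106 and 92.3 TPM and then at 20.5 and 25.4 TPM (log2 fold change -1.85, edgeR adjusted p = 0.00943). These 4 genes were called lower under each of the 13 alternatives computed for them. ZNF638, a nuclear protein linked to splicing and to silencing of unintegrated viral DNA, stood at 108 and 80.6 TPM and then at 65.7 and 54.0 TPM, with an edgeR adjusted p of 0.0488, and its log2 fold change was 0.06 against the second pair of A549 inputs. ZNF609, a transcriptional regulator, stood at 344 and 374 CPM in A549 and at 152 and 168 CPM in A549/DDP (2.24-fold, edgeR adjusted p = 0.00929). ZNF207, which encodes the spindle protein BuGZ, was second in level at 230 and 186 TPM in A549 and stood at 130 and 111 TPM in A549/DDP, with an edgeR adjusted p of 0.125. By level in A549, 1 of 82 members at 5 to 10 TPM, 11 of 84 at 10 to 20 TPM, 4 of 53 at 20 to 50 TPM and 8 of 21 at 50 TPM or more were called lower. These are 1.22%, 13.1%, 7.55% and 38.1%, and among other genes tested in the same bands 2.27%, 4.64%, 9.83% and 21.8% were called lower.

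Only 4 members passed the test as higher in A549/DDP. ZNF219, a Krüppel-like repressor that also partners the cartilage factor SOX9, rose the most, from 50.7 and 41.6 CPM to 144 and 138 CPM (3.05-fold, SE 0.20 on the log2 scale, edgeR adjusted p = 0.00682). ZNF692, a nuclear zinc finger factor, rose from 12.6 and 11.6 CPM to 39.5 and 28.3 CPM (2.80-fold, edgeR adjusted p = 0.0341). ZNF672 rose from 26.9 and 20.5 CPM to 48.6 and 56.8 CPM (2.22-fold, edgeR adjusted p = 0.0379). ZNF692 and ZNF672 are adjacent at the end of the long arm of chromosome 1, at chr1:248850008-248859085 on the minus strand and chr1:248838224-248849517 on the plus strand. ZNF574 (chr19:42068477-42081552) rose from 29.4 and 26.4 CPM to 61.4 and 54.2 CPM (2.07-fold, edgeR adjusted p = 0.0333). In all 4 genes both A549/DDP libraries lay above both A549 libraries. ZNF219 was called under 12 of 13 alternatives, ZNF692 under 9, ZNF574 under 8 and ZNF672 under 6.

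**Figure D2:**
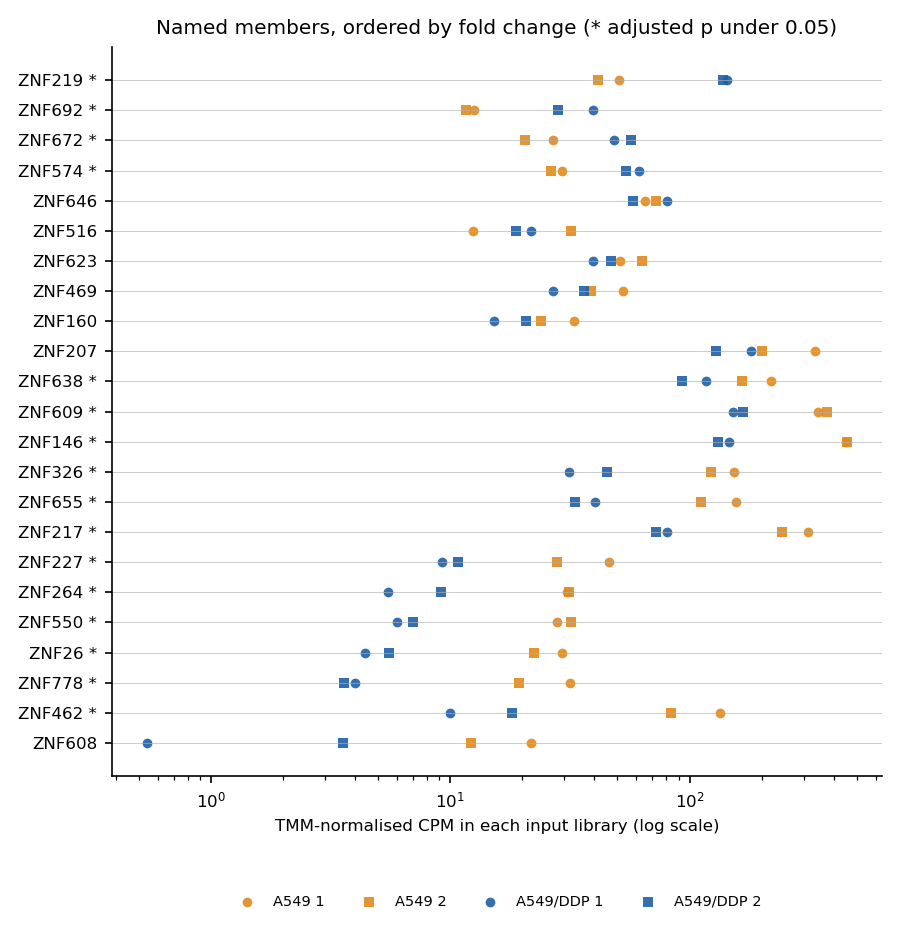
TMM-normalised CPM on a log scale in each of the 4 input libraries for the named members except ZNF229, ordered by fold change, with A549 in orange and A549/DDP in blue. From ZNF462 to ZNF638 in this order both blue marks lie left of both orange marks, the 4 genes at the top have them on the right, and ZNF516 and ZNF646 overlap.

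Chromosome 19 carried 95 members, of which 10 were called lower (10.5%) and 1 higher (1.05%, ZNF574). Among all genes tested 8.0% were lower and 6.85% higher. The median log2 fold change of these 95 members was -0.83, with 76 below 0. The 145 members elsewhere had a median of -0.44, with 14 lower (9.66%) and 3 higher (2.07%). The other 617 tested genes of chromosome 19 at the same level in A549 had a median of 0.27, with 34 lower (5.51%) and 80 higher (13.0%). Members of chromosome 16 (23 genes) and chromosome 7 (19 genes) had medians of 0.01 and -0.01, each with 1 gene called lower (4.35% and 5.26%). Some chromosomes with fewer members had lower medians than chromosome 19: -1.09 on chromosome 3 (8 genes), -0.97 on chromosome 15 (5 genes) and -0.96 on X (6 genes). The highest median was 0.26, on chromosome 14 (3 genes). Both A549/DDP inputs lay below both A549 inputs for 58 of the 95 members on chromosome 19 (61.1%) and above for 8 (8.42%), against 23.8% and 46.0% of the other genes of that chromosome and 32.7% and 29.7% of all genes tested. These differences between sets of genes were not tested, and levels differed too: the members of chromosome 19 had a median of 12.3 TPM in A549 and the other genes of that chromosome 38.7 TPM.

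The 10 members of chromosome 19 called lower lay in several of its gene groups. When members closer than 1000000 bases from start to start were grouped, 13 groups resulted. The largest, chr19:55576774-58489533, held 33 members with a median log2 fold change of -0.97 and 3 called lower, ZNF264, ZNF550 and ZNF134. These are 9.09%, against 10.0% of all members and 8.0% of all genes tested. The group at chr19:51964340-53580269 held 12 members with a median of -0.98, of which 0 were called. Both A549/DDP inputs lay below both A549 inputs for 10 of them (83.3%), against 54.2% of all members and 32.7% of all genes tested. No difference between groups was tested. The group at chr19:43596392-45076478 held 14 members with a median of -0.90 and 3 called lower (21.4%). Within it ZNF224, a KRAB repressor first studied on the aldolase A gene, stood at 30.8 and 29.1 CPM in A549 and at 10.5 and 12.1 CPM in A549/DDP (edgeR adjusted p = 0.036), and ZNF227 and ZNF229 were also called lower. ZNF222, in the same group, stood at 10.5 and 2.82 CPM in A549 and at 0.03 and 0.60 CPM in A549/DDP (edgeR adjusted p = 0.119). ZNF226, next to ZNF227, stood at 27.0 and 17.7 CPM and at 13.2 and 18.8 CPM, so its libraries overlapped. ZNF576, at the start of the group, stood at 5.20 and 7.34 CPM in A549 and higher, at 17.9 and 12.7 CPM, in A549/DDP, with an edgeR adjusted p of 0.123. ZNF574 and ZNF526 form a group by themselves with log2 fold changes of 1.05 and 0.38, the latter with an edgeR adjusted p of 0.315. ZNF222, ZNF226, ZNF576 and ZNF526 were picked after their values were seen, to show the spread within groups.

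**Figure D3:**
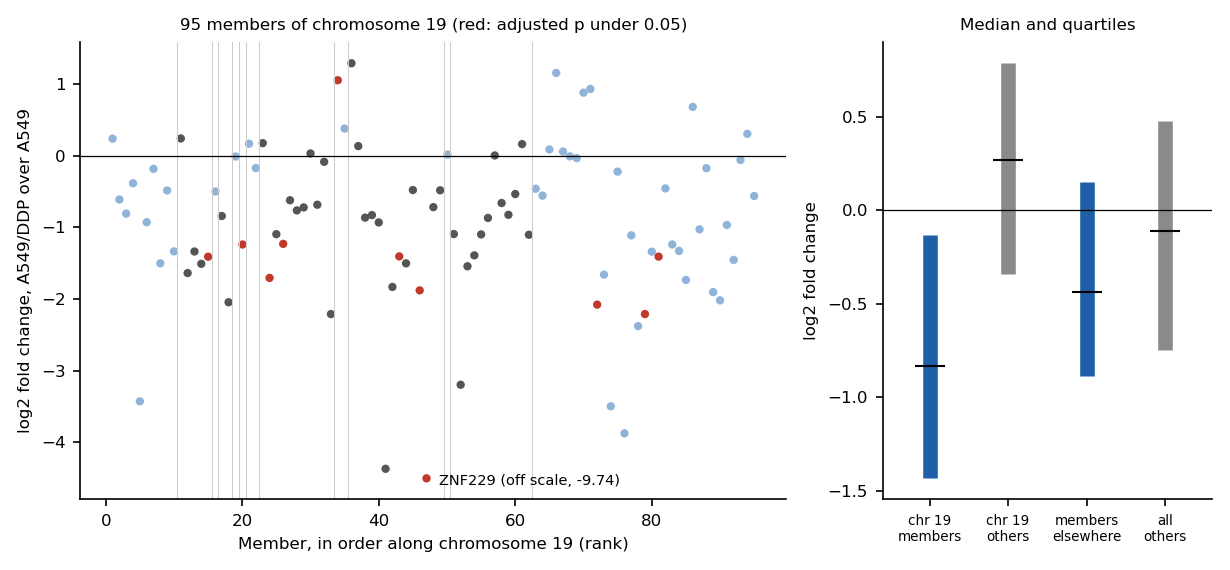
Left, the log2 fold change of A549/DDP over A549 for the 95 members of chromosome 19 in their order along it, with red for an adjusted p under 0.05, alternating shades for the 13 groups and ZNF229 drawn at the lower limit. Right, bars from the lower to the upper quartile and black median marks, at -0.83 for these members, 0.27 for the other genes of the chromosome, -0.44 for members elsewhere and -0.11 for all other genes of at least 5 TPM in A549.

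The fall in counts was not always a fall in level per length. The log2 count fold is the edgeR log2 fold change, and the log2 TPM ratio (pseudocount 0.1) is that of mean TPM in the authors' tables. These had opposite signs in 30 members, although 0 of the 28 called members were among them. The 2 measures also differ in how libraries are scaled and averaged. ZNF654, picked after its values were seen, was 1.10 log2 units apart at lengths of 3158 and 3085 bases. The median log2 TPM ratio of the members was -0.40, and 160 of 240 had a lower mean TPM in A549/DDP. In 17 members the 2 measures differed by more than 1 log2 unit. ZNF26 had a log2 count fold of -2.38 and a log2 TPM ratio of -1.04, and its mean length in the tables, an average over transcripts, was 3678 bases in A549 and 1719 bases in A549/DDP. ZNF268, a called member, had -1.68 and -0.53, with lengths of 2981 and 1429 bases. ZNF217 and ZNF655 had nearly equal values on both scales, with TPM ratios of -1.83 and -1.86. ZNF26, ZNF268, ZNF229 and ZNF778 were the called members over 1 unit apart. For ZNF229 the lengths were similar, at 3696 and 3834 bases. Its mean of 0.005 TPM in A549/DDP lay below the pseudocount, which limits its log2 TPM ratio, at -6.08. Reads shared with near-identical genes are another limit: 53, 46, 37 and 29 members had a fractional expected count in A549 replicates 1 and 2 and A549/DDP replicates 1 and 2, among them ZNF219 in all 4 inputs, and such counts depend on how reads were split. These are 22.1%, 19.2%, 15.4% and 12.1% of the members, below the 26.2%, 21.9%, 20.6% and 17.8% of all genes of at least 5 TPM in A549.

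The partners through which KRAB proteins act were examined in the same fit. Of 19 genes of the KAP1 pathway, all tested, 1 rose and 2 fell, with a median log2 fold change of -0.09. These 3 are 15.8% of the list, near the 14.9% called among all genes tested. TRIM28, which encodes KAP1, rose from 340 and 425 CPM in A549 to 722 and 846 CPM in A549/DDP (log2 fold change 1.03, SE 0.18, edgeR adjusted p = 0.0178). CBX1 and CBX3 encode the HP1 proteins beta and gamma, which read methylated histone H3. CBX1 fell from 154 and 173 CPM to 82.6 and 89.8 CPM (log2 fold change -0.93, edgeR adjusted p = 0.0216), and CBX3 from 196 and 196 CPM to 123 and 125 CPM (log2 fold change -0.66, edgeR adjusted p = 0.0418). SETDB1 stood at 90.2 and 77.0 CPM and then at 60.2 and 43.2 CPM (edgeR adjusted p = 0.106), and CHD4 of the NuRD complex at 187 and 303 CPM and then at 526 and 440 CPM (edgeR adjusted p = 0.0544). The number of these genes called ranged from 0 to 13 over the alternatives, with 0 without A549/DDP replicate 2. TRIM28 had no called m6A peak in any of the 4 lists.

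To ask how the members were marked by m6A, peaks were counted per gene in the 4 lists. The share of members with a peak was above that of other genes in A549. Without matching for level in A549/DDP, it was below that of other genes in A549/DDP. A peak was called on 83.8% of members in A549 list 1 and on 62.1% (149 genes) in A549 list 2, and on 50.4% (121 genes) and 19.6% (47 genes) in A549/DDP lists 1 and 2. Among the other 10870 genes of at least 5 TPM in A549 the shares were 54.9% and 40.8% in A549, and 54.6% and 30.1% in A549/DDP. Peaks on members numbered 865, 581, 540 and 176 in these lists. A peak in both A549 lists was called on 145 members (60.4%), against 36.6% of all genes at that level, and a peak in both A549/DDP lists on 46 members (19.2%), against 26.7%. Peaks in both A549 lists and neither A549/DDP list were called on 44 members (18.3%), against 5.54%, and the opposite pattern on 0 members, against 2.57%. All 4 lists marked 43 members and none of them marked 32. With 2 lists a line, no test of these counts was made. Because the threshold was set in A549, genes high there are favoured, so these counts are a description. Among genes of at least 5 TPM in both lines, 60.6% and 24.5% of 188 members had a peak in A549/DDP lists 1 and 2. The other genes under that limit had 58.2% and 32.1%. Peaks in both A549 lists and neither A549/DDP list were then on 14.4% of members and 4.29% of other genes. The lists differ in length, from 10661 peaks in A549/DDP list 2 to 27244 in A549/DDP list 1, so the count in both A549/DDP lists rests on the shorter: without it, 121 members had an A549/DDP peak, and without A549/DDP list 1, 101 members were marked in A549 alone. With lists of equal length the counts in both A549 lists, both A549/DDP lists, A549 alone and A549/DDP alone were 53, 16, 30 and 2. These are 22.1%, 6.67%, 12.5% and 0.833% of members, against 10.2%, 9.11%, 2.75% and 2.43% of other genes.

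The shares moved with the level of the RNA, whose part in the pattern was not tested. Members of 5 to 10 TPM in A549/DDP had a peak in 30.0% and 6.0% of cases in A549/DDP lists 1 and 2, and other genes in 29.2% and 11.9%. At 20 to 50 TPM in A549/DDP the shares were 80.8% and 40.4% for members and 60.8% and 30.0% for other genes. In A549, members of 5 to 10 TPM already had a peak in 76.8% and 48.8% of cases, and other genes of that level in 43.4% and 24.9%. Among genes of at least 5 TPM in both lines with a log2 fold change under 0.5 in size, 80 members had shares of 86.2%, 66.2%, 66.2% and 30.0% in A549 lists 1 and 2 and A549/DDP lists 1 and 2. The 4481 other genes under the same limits had 54.8%, 41.3%, 57.9% and 31.2%. Members were also longer, with a median length of 2485 bases against 1794. In the band of 2000 to 3000 bases, 83.0% and 58.0% of members and 58.0% and 43.3% of other genes had a peak in A549 lists 1 and 2, and 47.7% and 55.2% in A549/DDP list 1.

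**Figure D4:**
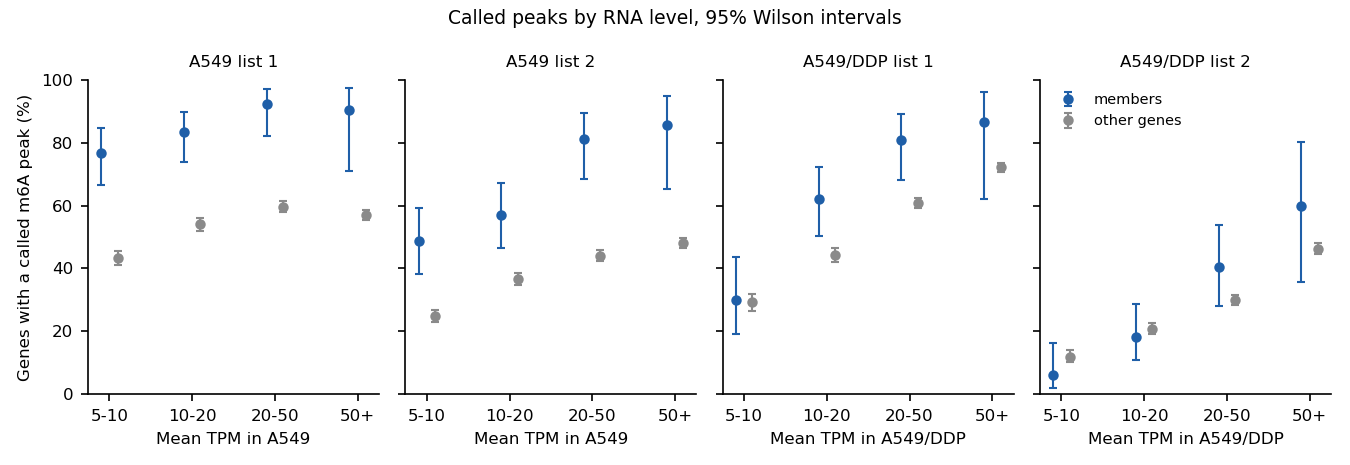
The percentage of genes with a called m6A peak in each of the 4 lists, by mean TPM in the line concerned, for members (blue) and other genes of at least 5 TPM in A549 (grey), with 95% Wilson intervals that cover counting error only. In both A549 lists the blue intervals lie above the grey points at every level, and in the A549/DDP lists members and other genes lie together at 5 to 10 TPM, at 30.0% and 29.2% in list 1.

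On chromosome 19 the shares of members with a peak were 83.2% and 63.2% in A549 and 36.8% and 16.8% in A549/DDP. The other 618 genes of chromosome 19 at that level had 77.0% and 58.1% in A549 and 67.8% and 45.6% in A549/DDP. Members elsewhere had 84.1%, 61.4%, 59.3% and 21.4% in the same order of lists. Of the 44 members marked in A549 alone, 27 lie on chromosome 19. Among the 130 members with both A549/DDP inputs below both A549 inputs, 35 were marked in A549 alone, against 2 of the 33 with both above and 7 of the 77 that overlapped.

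The 44 members marked in A549 alone had a median of 10.5 TPM in A549 and 5.86 TPM in A549/DDP, with a range of 0.005 to 35.9 TPM in A549/DDP. Their median log2 fold change was -1.33, and 8 of these 44 were called lower in RNA, against 10.0% of all members and 8.0% of all genes tested. A lower RNA level and the absence of called peaks thus occurred together in part of them, and a link between the 2 was not tested. ZNF229 had 3 and 5 peaks in the A549 lists and 0 in both A549/DDP lists, all in chr19:44428058-44430438, where 3 of 4 merged regions were present in both A549 lists. ZNF462 had 12 and 8 peaks in A549 and 0 in A549/DDP, and ZNF608, a relative of ZNF609, had 8 and 7 and then 0. ZNF608 RNA stood at 21.8 and 12.2 CPM in A549 and at 0.54 and 3.55 CPM in A549/DDP (edgeR adjusted p = 0.0839). In other members of this kind the RNA was not called lower. ZNF469, linked to brittle cornea syndrome, had 23 and 8 peaks in A549 and 0 in A549/DDP, while its RNA stood at 52.9 and 38.8 CPM in A549 and at 26.9 and 36.1 CPM in A549/DDP (log2 fold change -0.54, edgeR adjusted p = 0.256). ZNF516, a DNA-binding factor known from brown fat, had 7 and 8 peaks and then 0, with RNA at 12.5 and 32.1 CPM and at 21.7 and 18.9 CPM, which overlapped. ZNF160 had 5 and 7 peaks and then 0, with RNA at 33.0 and 23.9 CPM and at 15.2 and 20.7 CPM (edgeR adjusted p = 0.244). At least 5 TPM was measured in A549/DDP for 27 of the 44.

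Of the 5 members with the most listed peaks, all but ZNF469 had peaks in all 4 lists. These numbers count listed peaks and not separate sites. A stretch called as 1 peak in one list can be split in another, and listed peaks can overlap. ZNF638 had 10 and 10 peaks in A549 and 13 and 9 in A549/DDP, and ZNF609 had 12 and 9 and then 12 and 9. ZNF623 had 5 and 8 and then 9 and 11, and ZNF646 had 3 and 6 and then 13 and 7. Some ZNF623 peaks overlap within a list, such as chr8:143650054-143650697 and chr8:143650058-143650704 in A549 list 2. The 3 peaks of ZNF646 in A549 list 1 were 1148, 2497 and 1848 bases long. The longest of its 13 in A549/DDP list 1 was 749 bases. The RNA of ZNF646 overlapped between the lines, at 65.4 and 72.2 CPM and at 80.3 and 58.0 CPM. ZNF217 had 4 and 6 peaks in A549 and 8 and 7 in A549/DDP, and its RNA was called lower. Of its merged regions 3, among them chr20:53571764-53578334 on the minus strand, were present in all 4 lists. ZNF146 had 4 and 2 and then 4 and 3. ZNF655 had 7 and 8 peaks in A549 and then 9 and 0, so its A549/DDP lists differed. ZNF326 had 0 in both A549 lists and 2 and 0 in A549/DDP. ZNF207, second in RNA level, had 0 peaks in every list. Of the genes with higher RNA in A549/DDP, ZNF219 had 4 and 4 peaks and then 7 and 0, ZNF574 4 and 5 and then 6 and 4, ZNF672 6 and 3 and then 1 and 2, and ZNF692 3 and 0 and then 5 and 1.

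**Figure D5:**
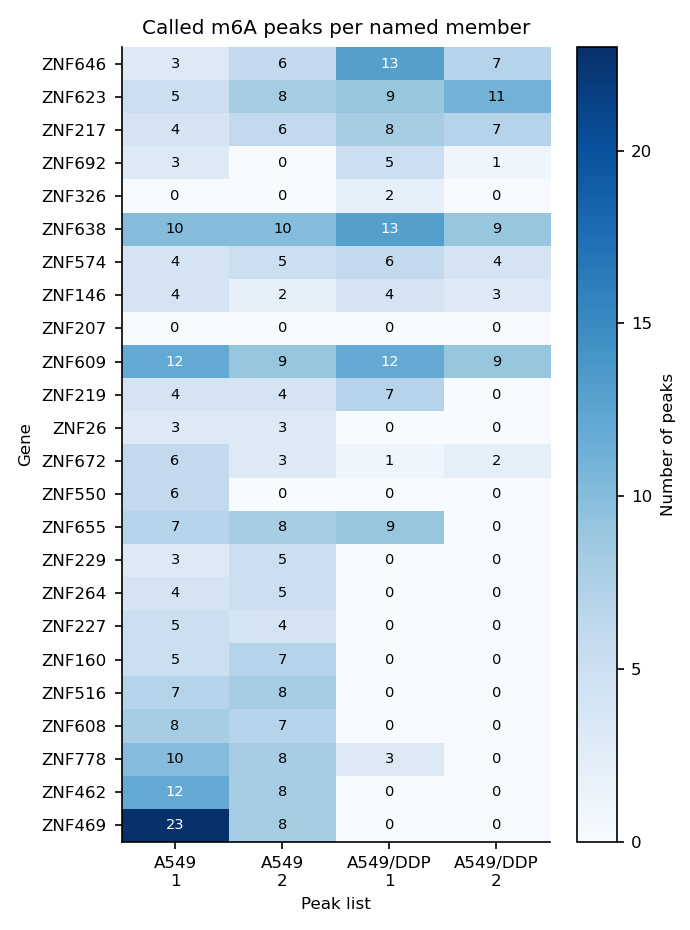
The number of called m6A peaks on each named member (rows) in each of the 4 lists (columns), from 0 (white) to 23 (dark blue), ordered by the A549 minus A549/DDP difference. The rows at the bottom are filled in both A549 lists and at 0 in at least 1 A549/DDP list, with ZNF469 at 23, 8, 0 and 0, and the rows of ZNF638 and ZNF609 are filled in all 4.

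At the level of sites, peaks that shared at least 1 base of exon on the same strand were merged over the 4 lists. Members held 926 regions, of which 72 (7.78%) were in all 4 lists, 155 (16.7%) in both A549 lists and neither A549/DDP list, and 2 (0.216%) in both A549/DDP lists and neither A549 list. The other genes of at least 5 TPM in A549 held 33219 regions, with 9.25%, 5.63% and 3.27% in these patterns. Peaks on members mostly lay in 1 exon block: 84.9% and 92.8% in A549 lists and 82.8% and 90.3% in A549/DDP lists, against 65.3%, 74.9%, 62.3% and 70.0% on other genes. Within 3000 bases of genome from the 3′ end of the gene lay 42.2% and 51.6% of the members' peaks in A549 and 46.2% and 58.0% in A549/DDP, and 38.3%, 43.6%, 39.1% and 47.3% of those on other genes. The files hold no peak height, so a change in the degree of methylation at a shared site was not measured.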

How the data were processed

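Per the file headers, each input table gives, for each gene, expected counts in the layout of RSEM beside TPM and FPKM. The deposited expected counts are estimates that need not be whole, and TPM were scaled by the authors for length and depth. FPKM were not used. Each m6A-seq library has its own list of peaks, deposited with strand, gene, exon blocks and a p-value, and whether this deposited p-value is adjusted is not given in the sources used here. The submitters' processing notes name RSEM, STAR, bedtools and hg38, with no role for each. Replicate numbers follow the labels.

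After rounding, edgeR 4.0.16 in R 4.3.3 was run with filterByExpr, TMM factors and its quasi-likelihood F test. Adjusted p-values (Benjamini-Hochberg, threshold 0.05) were computed over 16406 genes. The fit was run on simulated data with less spread between libraries than here, so its accuracy on these libraries was not tested. SE is the log2 fold change over the square root of F. Alternatives were DESeq2 1.42.0, limma 3.58.1 on log2(TPM + 1) or log2(TPM + 0.1), upper-quartile scaling, other filters, a replicate block, the second A549 pair, left-out replicates, and other TPM limits for membership. For peaks they were a p-value at or below 1e-05, lists of equal length, assignment by gene span and left-out lists. Counting intervals are at 95%. Gene positions and promoter windows are from RefSeq GRCh38.p14. Python 3.11.15, pandas 2.3.3, scipy 1.17.1 and matplotlib 3.10.9 were used.

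Members, lists and tests were chosen with earlier results of these data known. Membership at 5 TPM in both lines was added after seeing the data. Named genes were the 10 largest rises and falls among called members without overlap, the 5 highest in A549, the 5 with most peaks, the 5 per line with most peaks in that line alone, those next to the threshold, and the KAP1 pathway list. KRAB domains and peak sequences were not analysed here.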

Additional observations from a re-analysis of the deposited data

How the results depend on the processing

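Against 24 members lower, 4 higher and 3 KAP1 pathway genes called, the counts were 52, 5 and 7 with DESeq2, 53, 7 and 7 with no filter beyond 1 count, and 46, 5 and 6 with at least 10 counts in every library. Calls over all genes tested moved too, from 2437 of 16406 in the main fit to 4234 of 16406 with DESeq2. With no filter beyond 1 count they were 4010 of 22792, and with at least 10 counts in every library 3614 of 12840. With limma on log2(TPM + 1) 7 members were lower and 1 higher, with a median log2 fold change of -0.42, and on log2(TPM + 0.1) 4 were lower and 1 higher. Against the second A549 pair 11 were lower and 25 higher, 13 pathway genes were called and the members' median was 0.51, below the median of 0.80 of all genes. With both A549 pairs the counts were 9, 0 and 0, and 677 of all 16517 genes tested were called. Leaving out 1 replicate gave 25 to 46 lower, 1 to 6 higher and 0 to 7 pathway genes, with medians of -0.65 to -0.47. Membership by the mean of the 4 inputs, by the A549/DDP inputs or at 2 TPM gave 7 higher each, with medians of -0.48, -0.19 and -0.54. Membership at 5 TPM in both lines gave a median of -0.40. The causes were not tested beyond what each setting changes. Upper-quartile scaling moved the median of all genes by 0.05.

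The replicate numbers of the labels do not establish a pairing with 2 replicates a line, and deviations of same-numbered inputs correlated at 0.03. With the replicate number as a block, 49 members were lower, 5 higher, and 5 pathway genes were called.

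Restriction to p-values of at most 1e-05 left 37 members in both A549 lists, 15 in both A549/DDP lists, 14 in A549 alone and 1 in A549/DDP alone. These are 15.4%, 6.25%, 5.83% and 0.417% of members, against 7.72%, 7.86%, 2.16% and 2.48% of other genes of at least 5 TPM in A549. Lists of equal length gave 53, 16 and 30, and 2 in A549/DDP alone, and among other genes 10.2%, 9.11%, 2.75% and 2.43%. Membership at 5 TPM in both lines gave 27 in A549 alone. Leaving out 1 list gave 46 to 121 members in both A549/DDP lists, 45 to 101 in A549 alone and 0 to 3 in A549/DDP alone. Of 219 values for named members under alternatives, 169 kept direction and side of the threshold, 43 lost and 6 gained the call, and 1 reversed, ZNF638 with a log2 fold change of 0.0618 against the second pair. With 2 libraries a line and a common biological coefficient of variation of 0.656, small changes of low members were not detectable.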

Other observations

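Other families of C2H2 zinc finger genes at the same level in A549 (ZSCAN, ZKSCAN, ZBTB, ZFP and KLF genes, 64 in all) had a median log2 fold change of -0.66, with 8 lower and 5 higher and 46 below 0. Their medians were -0.94 for 11 ZSCAN genes, -0.38 for 3 ZKSCAN genes, -0.55 for 30 ZBTB genes, -0.34 for 11 ZFP genes and -0.69 for 9 KLF genes. Peaks were called on 92.2% and 76.6% of the 64 genes in A549 lists 1 and 2 and on 67.2% and 37.5% in A549/DDP lists 1 and 2. In A549 alone 12 of them were marked, and in A549/DDP alone 0. ZSCAN genes, which share the SCAN dimerisation domain, had the lowest shares in A549/DDP of these families, 36.4% and 18.2%. The 143 numbered ZNF genes tested that lay below 5 TPM in A549 had a median log2 fold change of -0.07, with 5 lower and 3 higher. As they were left out by the same threshold, this value is a description. No difference between these sets was tested.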
